A study of Mus musculus with 6 samples.

Results

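The 10 genes that carry iron into and out of cells were described in mouse hippocampal neurospheres: the transferrin receptor Tfrc and its ligand transferrin (Trf), the ferrireductases Steap2 and Steap3, the divalent metal importers Slc11a2 and Slc39a14, the siderophore carrier Lcn2, the exporter ferroportin (Slc40a1), and the ferroxidases Cp and Heph. They were taken by symbol for their roles, with earlier results of these data known. All 10 had a row among the 14327 genes of the expression table. Of the 10, 9 passed the filter of a mean of at least 1 FPKM (fragments scaled by transcript length and library size) over the 6 libraries and were tested among 11596 genes. Slc40a1 did not pass the filter.

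The libraries came from neurospheres, floating cultures of primary neural stem cells, grown from the hippocampus of mice at postnatal day 0 with B27, N2 and the growth factors EGF and bFGF. Of the libraries, 3 were labelled cKO, from mice called conditional knockouts of Slc22a17, and 3 labelled WT, from wild-type mice. Slc22a17 encodes a cell surface receptor for lipocalin 2, so the comparison asks how iron handling differs when that receptor is targeted. The sources used here name neither the Cre line behind the deletion nor the animals or cultures that each group stands for. All p-values therefore reflect library-to-library spread, and this may be technical.

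Iron reaches most cells bound to transferrin, which the transferrin receptor carries into endosomes. There a STEAP protein reduces ferric to ferrous iron, and Slc11a2 passes it into the cytosol. Slc39a14 takes up iron that is not bound to transferrin, and lipocalin 2 carries iron held by small siderophores. Ferroportin is the known exporter of ferrous iron, and the ferroxidases ceruloplasmin and hephaestin oxidise the iron as it leaves. In iron-poor cells, iron regulatory proteins bind hairpins called iron-responsive elements: in the 3′ UTR of Tfrc they stabilise the transcript, and in the 5′ UTR of Slc40a1 and of the ferritin chains they block translation.

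The hairpins are shown because they are the known link between iron and these transcripts. Annotated GENCODE M21 transcripts were searched for the loop CAGTGN with a last base other than G, a bulged C 6 bases before it, and at least 4 of 5 paired bases on either side (G-T pairs allowed). A match in a UTR was found in 3 of the 10 members, Tfrc, Slc11a2 and Slc40a1, and in 3.62% of 21877 protein-coding genes. With all 5 bases paired the members were Tfrc and Slc40a1, against 0.549% of genes. Tfrc held 4 matches in its 3′ UTR. Slc11a2 held 1, with 4 pairs, in 1 of its 6 protein-coding transcripts, and a value per gene does not separate the forms. Capitals mark the loop, and each line is a window of 30 bases read 5′ to 3′ on the gene's strand in GRCm38.
Tfrc, 3′ UTR, chr16:32631219-32631248, plus strand: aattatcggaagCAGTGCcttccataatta
Tfrc, 3′ UTR, chr16:32631598-32631627, plus strand: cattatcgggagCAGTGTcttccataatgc
Tfrc, 3′ UTR, chr16:32631663-32631692, plus strand: ctatatcggagaCAGTGAtctccatatgtt
Tfrc, 3′ UTR, chr16:32631710-32631739, plus strand: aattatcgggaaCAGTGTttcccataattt
Slc11a2, 3′ UTR, chr15:100395152-100395181, minus strand: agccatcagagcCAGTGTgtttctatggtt
Slc40a1, 5′ UTR, chr1:45925464-45925493, minus strand: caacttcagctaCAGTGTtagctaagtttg
Fth1, 5′ UTR, chr19:9982732-9982761, plus strand: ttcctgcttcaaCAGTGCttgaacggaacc
Ftl1, 5′ UTR, chr7:45459778-45459807, minus strand: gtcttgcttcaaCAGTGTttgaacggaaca
The ferritin chains Fth1 and Ftl1 are given for comparison. A match is a description of the letters and was not tested as a binding site.

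Slc22a17 transcript was present in every library, at 163.78, 166.09 and 186.83 FPKM in cKO replicates 1 to 3 and at 180.59, 168.99 and 203.92 FPKM in WT replicates 1 to 3 (log2 fold change -0.097, adjusted p = 0.707, limma). The groups overlapped, and an exact two-sided permutation test gave p = 0.5, where 0.1 is the smallest that 3 against 3 libraries allow. The target transcript was therefore not lost in the libraries labelled cKO, a gene value does not show which exons were read, and directions below are between the labels. The Y-linked Ddx3y and Eif2s3y summed to 43.8 to 51.2 FPKM in the libraries labelled cKO, and to 0.07 and 0.10 FPKM in WT replicates 2 and 1 and 25.9 FPKM in WT replicate 3. Group and Y-linked transcripts cannot be told apart here. Neural stem markers were abundant, with Sox2 at 128 FPKM in the libraries labelled cKO and 135 FPKM in WT and Nes at 92.1 FPKM in cKO-labelled libraries and 104 FPKM in WT. Markers of other cell types ranged from near the floor to well detected. Dcx of neuroblasts averaged 0.193 FPKM in cKO-labelled libraries and 0.213 FPKM in WT, Ttr of choroid plexus 0.11 FPKM in each group and Aif1 of microglia 0.38 FPKM in cKO-labelled libraries and 0.27 FPKM in WT, while C1qa of microglia was at 2.85 to 6.76 FPKM, Map2 of neurons at 70.77 to 84.75 FPKM and Foxj1 of ependyma at 22.71 to 29.86 FPKM over the 6 libraries. The astrocyte marker Gfap averaged 2442 FPKM in cKO-labelled libraries and 2281 FPKM in WT. The oligodendrocyte lineage marker Olig2 averaged 280.2 FPKM in cKO-labelled libraries and 298 FPKM in WT, so transcripts of glial lineages were abundant too. Of 8 astrocyte transcripts 6 had positive log2 fold changes, and of 11 oligodendrocyte lineage transcripts 10 had negative ones, as had 6431 of all 11596 tested genes. Groups did not overlap for 3 astrocyte transcripts, all higher in the libraries labelled cKO, beside 7.07% of all tested genes. They did not overlap for 3 oligodendrocyte lineage transcripts, all lower, beside 10.2%. None of either list passed, and cell shares were not tested.

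None of the 9 tested members rose or fell at an adjusted p of 0.05, against 0.0259% of all tested genes (3 genes, with 0.00862% higher and 0.0172% lower in the libraries labelled cKO). At an unadjusted p under 0.05 the count was 1 of 9, Slc39a14, against 12.3% of all tested genes. The log2 fold change was positive for 5 tested members and negative for 4, with a median of 0.054 beside -0.015 over all tested genes. Of all tested genes, 5165 were positive and 6431 negative. The members' median was -0.0013 without WT replicate 3, 0.0051 without cKO replicate 3 and -0.022 with a filter of 5 FPKM. Values of the groups did not overlap for 2 members, Slc11a2 and Slc39a14, both higher in the libraries labelled cKO, where 7.07% of tested genes lay that way and 10.2% lay the other way. The uptake machinery was present at moderate levels and the exporter was nearly absent: per length, Trf stood highest and Slc40a1 lowest in all 6 libraries.

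**Figure D1:**
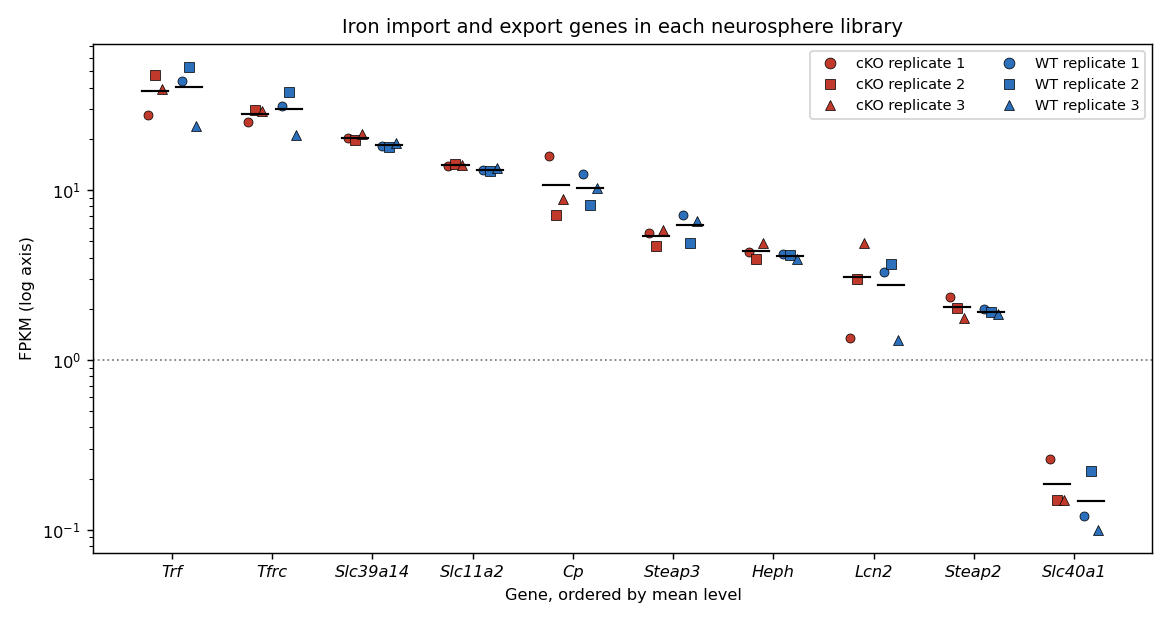
FPKM of the 10 genes on a log axis, with 3 cKO (red, left) and 3 WT (blue, right) libraries per gene as points, their mean as a black line and the filter of 1 FPKM dotted. Trf and Tfrc head the order, Slc40a1 lies far below the filter, and Slc39a14 and Slc11a2 are the members whose groups do not overlap.

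Averaged over all 6 libraries, levels ran from Trf (39.1 FPKM), Tfrc (28.97), Slc39a14 (19.3), Slc11a2 (13.6), Cp (10.5), Steap3 (5.77), Heph (4.22), Lcn2 (2.91) and Steap2 (1.98) to Slc40a1 (0.167). These placed Trf at percentile 85.5 of the table, Tfrc at 80.1, Steap2 at 24.9 and Slc40a1 at 6.83. Neighbours in this order had separate ranges over the libraries at 3 steps: Slc39a14 above Slc11a2, Cp above Steap3 and Steap2 above Slc40a1. The ranges of Trf and Tfrc overlapped, although Trf was the higher in 6 of 6 libraries. Lcn2 exceeded Steap2 in 4 of 6 libraries.

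Tfrc and Trf varied between libraries more than between groups. Tfrc (chr16:32608896-32632794) stood at 25.2, 29.48 and 29.23 FPKM in cKO replicates 1 to 3 and at 31.07, 37.83 and 20.98 FPKM in WT replicates 1 to 3. The WT libraries held both the highest and the lowest value, and all 3 values labelled cKO lay between them. WT replicates 2 and 1, the highest libraries for Tfrc, were those with Y-linked sums of 0.07 and 0.10 FPKM. A link of Tfrc to what the Y-linked values mark was not tested. The means were 27.97 ± 2.40 FPKM in the libraries labelled cKO and 29.96 ± 8.48 FPKM in WT (SD, n = 3 each), with a log2 fold change of -0.060 (SE 0.18, limma adjusted p = 0.929). The 95% interval ran from 0.721-fold to 1.28-fold. Leaving out WT replicate 2 turned the estimate to 0.12, and leaving out cKO replicate 1 turned it to 0.010.

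Trf (chr9:103208876-103230286), the plasma iron carrier that glia also make, followed the same libraries. It stood at 27.7, 47.48 and 39.04 FPKM in cKO replicates 1 to 3 and at 43.74, 52.86 and 23.84 FPKM in WT replicates 1 to 3. As for Tfrc, WT replicate 2 was highest, and WT replicate 3 and cKO replicate 1 were the lowest pair. The means were 38.07 ± 9.93 FPKM in cKO-labelled libraries and 40.15 ± 14.8 FPKM in WT (SD, n = 3 each; log2 fold change -0.035, SE 0.28, limma adjusted p = 0.976). The interval of 0.625-fold to 1.53-fold leaves room for changes of that size either way. The sign of Trf turned without WT replicate 1 (0.062), WT replicate 2 (0.20) or cKO replicate 1 (0.17). Oligodendrocytes make transferrin in brain, and in bulk RNA fewer cells of a type and less RNA per cell cannot be told apart. The 11 oligodendrocyte lineage transcripts summed to 1594, 1360 and 1494 FPKM in cKO replicates 1 to 3 and to 1609, 1433 and 1879 FPKM in WT replicates 1 to 3, a sum carried mostly by Olig1 and Olig2. Weighting each transcript equally, their mean log2 deviations were -0.27, 0.031 and -0.22 for cKO replicates 1 to 3 and -0.037, 0.32 and 0.18 for WT replicates 1 to 3. The sum was highest in WT replicate 3, the lowest library for Trf, and the mean deviation was second highest there. The mean deviation was highest in WT replicate 2 and lowest in cKO replicate 1, the highest and the second lowest library for Trf. Mbp, a myelin protein of mature oligodendrocytes, stood at 27.03, 52.99 and 36.37 FPKM in cKO replicates 1 to 3 and at 45.95, 74.96 and 61.26 FPKM in WT replicates 1 to 3. The part of these cells in the Trf values was not tested. The annotation also places Gm20425 over exons of Trf on the same strand, so Trf reads may be shared.

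Lcn2 (chr2:32384637-32387739), the ligand of the Slc22a17 receptor, spanned the widest range of the tested members, 3.73-fold from lowest to highest library. It stood at 1.34, 2.98 and 4.88 FPKM in cKO replicates 1 to 3 and at 3.28, 3.65 and 1.31 FPKM in WT replicates 1 to 3. Both groups held a library near 1.3 FPKM, cKO replicate 1 and WT replicate 3, the same pair that was lowest for Tfrc and Trf. The log2 fold change was 0.084 (SE 0.35, limma adjusted p = 0.953), with an interval of 0.605-fold to 1.86-fold, and was -0.23 without either cKO replicate 3 or WT replicate 3. Lcn2 is known as an acute phase gene. The inflammation list had 8 tested members, and their mean log2 deviation from each gene's average was -0.22, 0.14 and -0.27 in cKO replicates 1 to 3 and 0.22, 0.16 and -0.020 in WT replicates 1 to 3. None of the 8 passed, the lowest p being that of the adhesion molecule Vcam1 (18.7 FPKM in cKO-labelled libraries and 21.7 FPKM in WT, adjusted p = 0.242). cKO replicate 3 was thus the highest library for Lcn2 and the lowest for the mean of these 8. Of 4 list genes under the filter, Saa3 was highest in cKO replicate 3 (2.38 FPKM) and lowest in cKO replicate 1 (0.23 FPKM). The lowest pair of libraries for Saa3 and C3 was that of Lcn2, while Ccl2 and Cxcl10 were highest in cKO replicate 1.

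The pair of libraries lowest for Tfrc, Trf and Lcn2, WT replicate 3 and cKO replicate 1, was also the lowest pair for 6.44% of all tested genes. That pair was picked out after the values were seen, so the 3 of 9 members carry no test. Transcripts of the low-oxygen response moved over the same libraries in part. The 16 hypoxia transcripts had mean log2 deviations of -0.38, 0.064 and -0.37 for cKO replicates 1 to 3 and of 0.34, 0.71 and -0.36 for WT replicates 1 to 3, so that WT replicates 2 and 1 and cKO replicate 2 were the upper 3 for this list as for Tfrc and Trf. Vegfa, an angiogenic factor induced in hypoxia, stood at 99.75, 140.08 and 87.12 FPKM in cKO replicates 1 to 3 and at 223.89, 271.85 and 87.58 FPKM in WT replicates 1 to 3. The hypoxia list was chosen with earlier results of these data known. All 16 of its transcripts had lower means on the log2 scale in the libraries labelled cKO, as had 6431 of all 11596 tested genes. None of the 16 passed. Their median log2 fold change was -0.47, which was -0.20 without WT replicate 2 and turned to 0.18 against WT replicate 3 alone. Their lowest p-values were those of Hilpda, a lipid droplet protein (12.6 FPKM in cKO-labelled libraries and 19.1 FPKM in WT, adjusted p = 0.126), the carbonic anhydrase Car12 (adjusted p = 0.194) and the peptide hormone Adm (adjusted p = 0.257). WT replicates 2 and 1, the highest libraries for the hypoxia list and for Vegfa, were those with Y-linked sums of 0.07 and 0.10 FPKM. For Trf, cKO replicate 2 lay between them. The part of the hypoxia transcripts, or of what the Y-linked values mark, in the spread of Tfrc, Trf and Lcn2 was not tested.

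**Figure D2:**
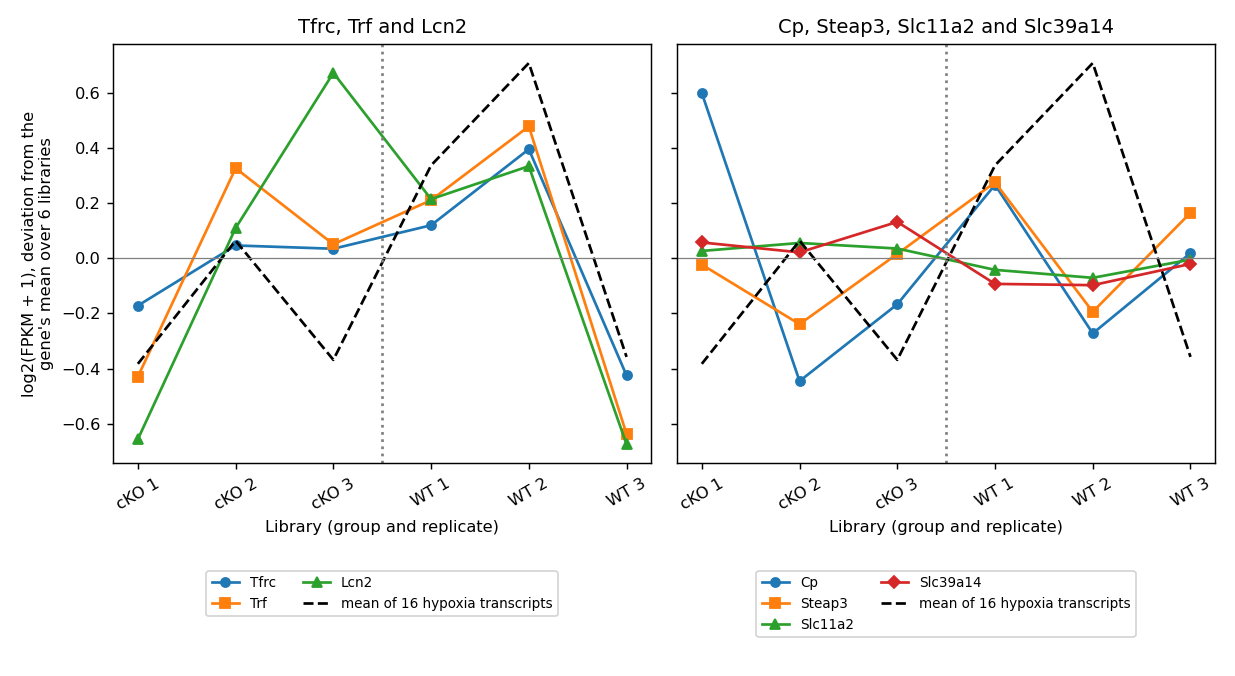
Deviation of log2(FPKM + 1) from each gene's mean over 6 libraries, for Tfrc, Trf and Lcn2 (left) and for Cp, Steap3, Slc11a2 and Slc39a14 (right), with the mean of 16 hypoxia transcripts as a dashed line and cKO libraries left of the dotted line. Tfrc, Trf and Lcn2 are lowest in WT replicate 3 and cKO replicate 1, while Slc11a2 and Slc39a14 stay near 0 with every cKO point above every WT point.

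A factor of the low-oxygen response binds a core of ACGTG in hypoxia-induced promoters. RefSeq promoter windows of GRCm38.p6 (250 bases before to 50 after a gene start) were held for 5 members, Tfrc, Steap2, Steap3, Lcn2 and Cp. ACGTG on either strand was found in 3 of the members' 12 windows, those of Tfrc and Steap2, and in 19.6% of all 32851 windows. The Tfrc windows with a match overlap and hold the same site, so the window count takes that site more than once. The stretch from Tfrc, with the core in capitals, was picked for display after the library values were seen. Steap2, which also holds the core, was highest in cKO replicate 1, the lowest library for the hypoxia list. A link of the core to the level of Tfrc or Steap2 was not tested. The letters alone say nothing of binding.
Tfrc, chr16:32608882-32608910, plus strand: ctcggtaggtgtACGTGcggaaggaagtg

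The divalent metal importers were the steadiest members and lay slightly higher in the libraries labelled cKO, without passing the test. Slc39a14 (chr14:70303467-70351452) stood at 20.11, 19.59 and 21.23 FPKM in cKO replicates 1 to 3 and at 18.02, 17.96 and 19 FPKM in WT replicates 1 to 3. Every library labelled cKO exceeded every WT library,. The mean in the libraries labelled cKO was 111% of that in WT (log2 fold change 0.14, SE 0.059, unadjusted p = 0.0425, limma adjusted p = 0.390), with an interval of 1.004-fold to 1.21-fold. Leaving out single libraries gave 0.11 to 0.17, and the exact permutation p was 0.1. When Ddx3y and Eif2s3y entered the fit as a covariate, the estimate was 0.0023 (limma adjusted p = 0.999). That covariate follows the group apart from WT replicate 3. The fit therefore rests mostly on that library and cannot separate group from Y-linked transcripts.

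Slc11a2 (chr15:100387898-100424209), which moves ferrous iron out of endosomes, stood at 13.84, 14.14 and 13.93 FPKM in cKO replicates 1 to 3 and at 13.15, 12.87 and 13.52 FPKM in WT replicates 1 to 3. All values labelled cKO were above all WT values, within a whole range of 1.10-fold. The log2 fold change was 0.078 (SE 0.056, limma adjusted p = 0.623), with an interval of 0.965-fold to 1.15-fold, and 0.063 to 0.096 without single libraries. With the Y-linked transcripts as a covariate it was 0.014, under the limit given for Slc39a14. Its within-group SD of 0.026 on the log2 scale was at percentile 1.2 of tested genes, and the model's SE draws also on the common trend. Gm5475 overlaps its exons on the opposite strand. Slc39a8, a close relative of Slc39a14 that also carries iron, averaged 1.51 FPKM in the libraries labelled cKO and 1.83 FPKM in WT (adjusted p = 0.665).

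The ferrireductases did not change past the threshold. Steap3 (chr1:120226414-120271081), known as the endosomal ferrireductase of red cell precursors, stood at 5.61, 4.69 and 5.79 FPKM in cKO replicates 1 to 3 and at 7.13, 4.87 and 6.53 FPKM in WT replicates 1 to 3. WT replicates 1 and 3 were the highest libraries and WT replicate 2 lay among those labelled cKO. The log2 fold change was -0.16 (SE 0.13, limma adjusted p = 0.663), with an interval of 0.726-fold to 1.10-fold, and remained negative without any single library (-0.30 to -0.068). Steap2 (chr5:5664829-5694649), a relative that also reduces copper, was near the filter at 2.34, 2.01 and 1.77 FPKM in cKO replicates 1 to 3 and 2, 1.91 and 1.85 FPKM in WT replicates 1 to 3. The libraries labelled cKO spanned the whole WT range (log2 fold change 0.054, adjusted p = 0.876), and the sign turned without cKO replicate 1 (-0.016). Of their relatives, Steap1 averaged 2.84 FPKM in the libraries labelled cKO and 3.30 FPKM in WT, and Steap4 0.837 FPKM in cKO-labelled libraries and 0.677 FPKM in WT.

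**Figure D3:**
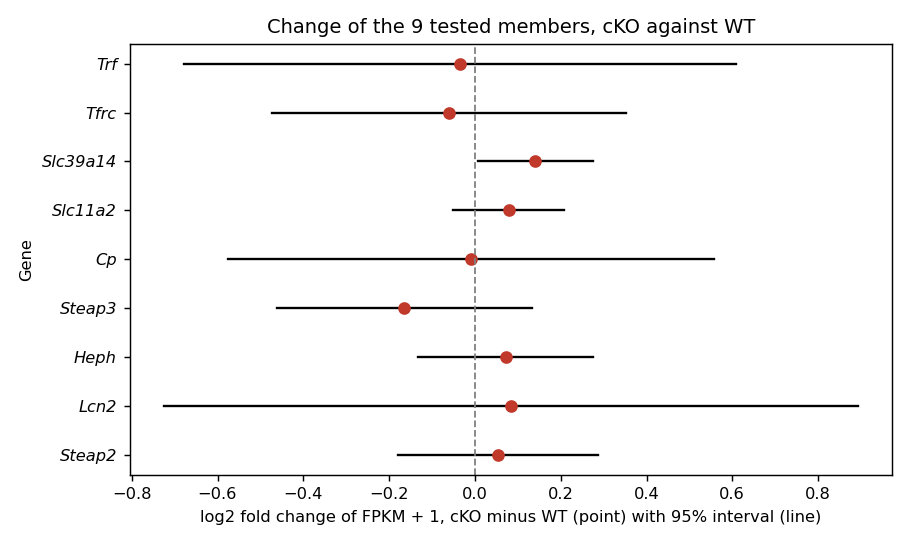
Log2 fold change of FPKM + 1, cKO minus WT, for the 9 tested members in order of level, with 95% intervals from limma. Intervals of Tfrc, Trf, Cp and Lcn2 are wide and centred near 0, those of Slc11a2 and Slc39a14 are narrow, and none passed after adjustment.

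The export side was scarce in ferroportin. Slc40a1 (chr1:45908070-45926532) stood at 0.26, 0.15 and 0.15 FPKM in cKO replicates 1 to 3 and at 0.12, 0.22 and 0.1 FPKM in WT replicates 1 to 3. The groups overlapped, and the exact two-sided permutation test gave p = 0.5. A rough depth of 16850000 to 17300000 fragments per library was estimated from steps between low values and was not tested. At that depth and a transcript of 3370 bases, the Slc40a1 values would correspond to about 5.8 to 14.8 fragments. Fitted with no filter, Slc40a1 had an adjusted p of 0.829 (limma). Macrophages and microglia are known for high ferroportin. The 11 microglial markers summed to 9.55, 24.86 and 23.24 FPKM in cKO replicates 1 to 3 and to 18.72, 19.34 and 17.33 FPKM in WT replicates 1 to 3, so that cKO replicate 1 was lowest for the list and highest for Slc40a1; the part of these cells in the Slc40a1 values was not tested.

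Of the ferroxidases, Cp (chr3:19956933-20009750), made in brain by astrocytes, stood at 15.84, 7.16 and 8.9 FPKM in cKO replicates 1 to 3 and at 12.37, 8.2 and 10.26 FPKM in WT replicates 1 to 3. The libraries labelled cKO held both extremes. The 8 astrocyte transcripts had mean log2 deviations of 0.086, 0.078 and 0.13 in cKO replicates 1 to 3. In WT replicates 1 to 3 these were -0.033, -0.19 and -0.063. The part of astrocytes in the Cp values was not tested. The mean was 10.63 ± 4.59 FPKM in the libraries labelled cKO and 10.28 ± 2.09 FPKM in WT (SD, n = 3 each), while the mean of logs was marginally lower (log2 fold change -0.0086, SE 0.25, limma adjusted p = 0.994), a sign that turned to 0.024 with quantile normalization and 0.016 with median scaling. The interval was 0.671-fold to 1.47-fold. Cp and Steap3 were lowest in the same pair of libraries, WT replicate 2 and cKO replicate 2, as were 8.25% of all tested genes. These were the libraries with the highest Trf. This pair too was picked out after the values were seen, so it carries no test, and a relation of Cp or Steap3 to Trf was not tested. Exons of Cp overlap Hps3 on the opposite strand, which was at 4.47 to 5.38 FPKM, and reads of such a pair are told apart only by stranded counting, which is not stated.

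Heph (chrX:96455436-96574485), the membrane-bound ferroxidase of gut and glia, stood at 4.29, 3.91 and 4.86 FPKM in cKO replicates 1 to 3 and at 4.21, 4.12 and 3.91 FPKM in WT replicates 1 to 3. The lowest value of each group was the same. The log2 fold change was 0.072 (SE 0.089, limma adjusted p = 0.80), with an interval of 0.913-fold to 1.21-fold. Exons of Heph overlap Hsf3 on the opposite strand, which was at 0.02 to 0.12 FPKM.

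Spread within groups divided the members. On the log2 scale the within-group SD was 0.61 for Lcn2, 0.49 for Trf, 0.43 for Cp and 0.31 for Tfrc, at percentiles 97.0 to 99.6 of tested genes, where the median gene had 0.098. Steap3 was at 0.20 (percentile 88.8), Steap2 at 0.099 and Heph at 0.096 near the median, and Slc39a14 at 0.050 (percentile 11.3). Among only the genes nearest in level, Tfrc was at percentile 98.4, Cp at 98.5, Lcn2 at 98.9 and Trf at 99.6. By that measure Steap3 was at percentile 84.9, Heph at 32.1, Steap2 at 26.2, Slc39a14 at 16.1 and Slc11a2 at 0.9.

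**Figure D4:**
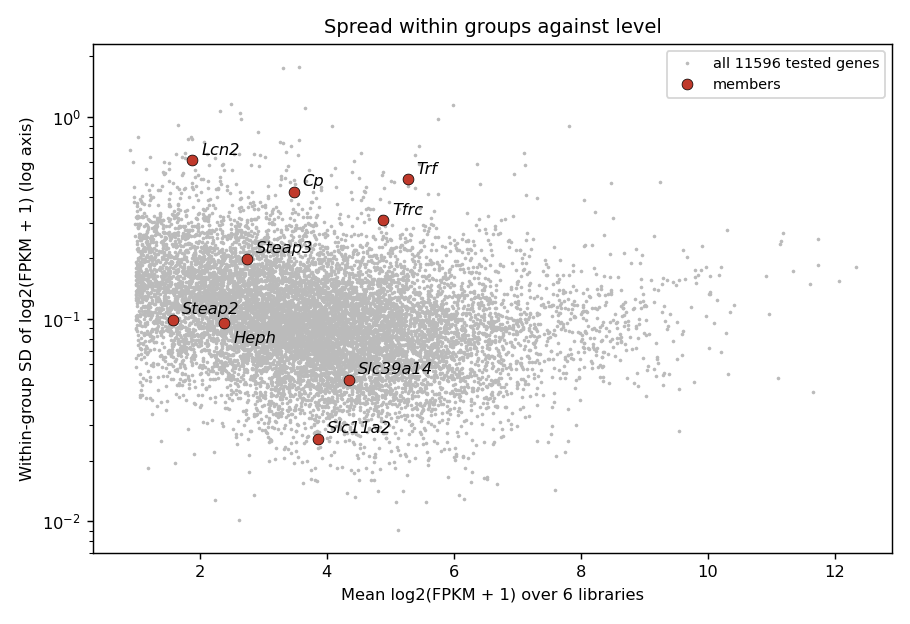
Within-group SD of log2(FPKM + 1) (log axis) against mean level for all 11596 tested genes (grey) and the 9 tested members (red). Lcn2, Cp, Trf and Tfrc lie at the top of the cloud for their level and Slc11a2 near its floor.

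Other genes of iron traffic were read by role, in lists chosen with earlier results of these data known. Of 13 other uptake genes 9 had a row and 7 were tested, and none passed. All 7 had negative log2 fold changes, as had 6431 of all 11596 tested genes. Their median was -0.16 beside -0.015 for all tested genes (-0.14 under quantile normalization and under median scaling). The duodenal-type ferrireductase Cybrd1 averaged 67.9 FPKM in the libraries labelled cKO and 75.95 FPKM in WT (adjusted p = 0.451), Hfe, a partner of the transferrin receptor, 9.13 FPKM in cKO-labelled libraries and 11.1 FPKM in WT (adjusted p = 0.460), and the endocytic receptor Lrp2, which also binds lipocalin 2, 1.54 FPKM in cKO-labelled libraries and 1.94 FPKM in WT (adjusted p = 0.408). Groups did not overlap for 1 of the 7, Lrp2, beside 10.2% of all tested genes that were lower in this way. Hfe was highest in WT replicate 2, as were Tfrc and Trf.

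The 24 genes that carry the transferrin receptor through clathrin uptake and recycling were all tested, and none passed, with 17 positive and 7 negative log2 fold changes and a median of 0.036. Over all tested genes 5165 were positive and 6431 negative. Rab4a, a small GTPase of rapid recycling, averaged 16.1 FPKM in the libraries labelled cKO and 13.3 FPKM in WT (adjusted p = 0.264), Mcoln1, an endolysosomal channel that releases iron, 22.0 FPKM in cKO-labelled libraries and 19.6 FPKM in WT (adjusted p = 0.448), and Rab5a, a GTPase of early endosomes, 72.2 FPKM in cKO-labelled libraries and 66.95 FPKM in WT (adjusted p = 0.479). Groups did not overlap for 5 of the 24, all higher in the libraries labelled cKO, beside 7.07% of all tested genes that way and 17.2% in either direction.

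Of 12 genes of export and its control by hepcidin, 7 had a row and 6 were tested, with 2 positive and 4 negative log2 fold changes, a median of -0.058 and none past the threshold. Neo1, a co-receptor in hepcidin control, averaged 29.4 FPKM in the libraries labelled cKO and 31.4 FPKM in WT (adjusted p = 0.497), the drug and porphyrin exporter Abcg2 4.05 FPKM in cKO-labelled libraries and 4.44 FPKM in WT (adjusted p = 0.644), and Mon1a, a trafficking factor, 6.75 FPKM in cKO-labelled libraries and 6.42 FPKM in WT (adjusted p = 0.759). App, whose protein is described as holding ferroportin at the surface, averaged 82.6 FPKM in cKO-labelled libraries and 86.7 FPKM in WT (adjusted p = 0.774).

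Inside the cell, 1 of 13 genes of sensing, storage and release passed, Hmox1, the enzyme that frees iron from heme. Hmox1 rose to 118.24, 117.14 and 93.15 FPKM in the libraries labelled cKO, against 56.08, 58.01 and 57.08 FPKM in WT (log2 fold change 0.92, limma adjusted p = 0.0253). The call was kept in 10 of 19 alternative settings and lost in 9, among them leaving out WT replicate 1 (adjusted p = 0.187), WT replicate 2 (0.0933), cKO replicate 1 (0.122) or cKO replicate 2 (0.0887), while the log2 fold change stayed between 0.86 and 1.03. The iron regulatory proteins that bind the hairpins shown above did not pass, with Aco1 at 31.4 FPKM in the libraries labelled cKO and 31.05 FPKM in WT (adjusted p = 0.947) and Ireb2 at 19.6 FPKM in cKO-labelled libraries and 19.7 FPKM in WT (adjusted p = 0.984). Ftl1 averaged 965 FPKM in cKO-labelled libraries and 758 FPKM in WT (adjusted p = 0.238) and Fth1 2534 FPKM in cKO-labelled libraries and 2011 FPKM in WT (adjusted p = 0.483). Ftl1 stood at 948, 1076 and 870 FPKM in cKO replicates 1 to 3 and at 728, 767 and 778 FPKM in WT. Fth1 stood at 2075, 3226 and 2301 FPKM in cKO replicates 1 to 3 and at 2046, 2018 and 1970 FPKM in WT. The Fth1 mean was raised most by cKO replicate 2.

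**Figure D5:**
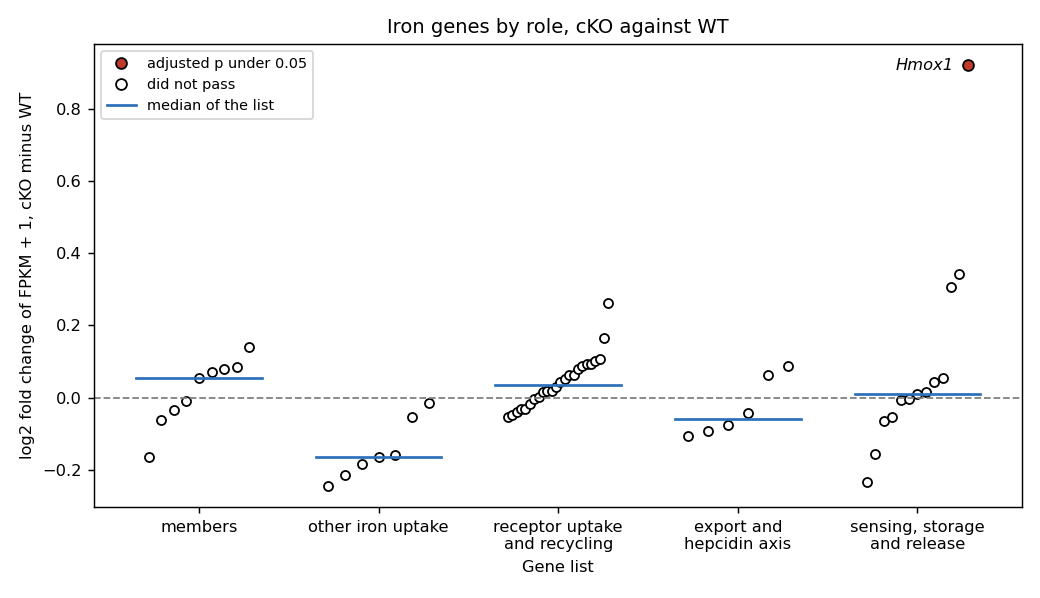
Log2 fold change of FPKM + 1, cKO minus WT, for each tested gene of 5 lists, with the list median in blue. Hmox1 is the filled point that passed at an adjusted p of 0.05, all members lie between -0.16 and 0.14, and the 7 other uptake genes lie below 0.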

How the data were processed

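Per the labels' protocols, a service ran the 3 libraries labelled cKO and the 3 labelled WT on BGISEQ. The authors deposited 1 FPKM value for each gene in each library, as the column names say, per the file headers. The submitters' processing notes list Bowtie2 and the GRCm38 (mm10) build. The sources used here give no counter, annotation, transcript lengths or strand setting.

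Depth was estimated from steps between low FPKM values of genes with 1 annotated transcript, and came to 16850000 to 17300000 fragments. At the depth kept, from 59.6% to 76.3% of values were whole within 0.15, and whole reads were not recovered. Chance alignment gives 30% at a single fixed depth. The depth kept was picked from a searched range on 38 to 47 values per library. Its share can exceed 30% by that choice alone, so the comparison does not test the depth.

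log2(FPKM + 1) was fitted for every gene averaging 1 FPKM or more by limma 3.58.1 in R 4.3.3 (intensity trend, two-sided, Benjamini-Hochberg over all tested genes, threshold 0.05), after tests on simulated data. This scale understates changes of low genes. Single values were compared by exact permutation in scipy 1.17.1.

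The members and lists were chosen with earlier results of these data known. Genes named are the members, Slc22a17, up to 3 list members of lowest p, those passing, marker genes, Hmox1, Fth1 and Ftl1. Named after their values were seen: App, Aco1, Ireb2, Slc39a8, Steap1, Steap4, Vegfa, Mbp, and the untested inflammation genes Saa3, C3, Ccl2 and Cxcl10. The 19 alternatives covered pseudocount, filter, scaling, variance model, library weights, replicate block, Y-linked share, chromosomes and left-out libraries.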

Additional observations from a re-analysis of the deposited data

How the results depend on the processing

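No member passed the threshold under any of the 19 alternatives, and Slc22a17 kept its direction and its side of the threshold in all of them, with log2 fold changes of -0.158 to -0.0229 without single libraries. The count over all tested genes was unstable: 3 as reported, 0 with no filter, with quantile normalization, without the intensity trend, with a Y-linked covariate and against WT replicate 3 alone, 129 with library weights, and 0 to 10 without single libraries. With the replicate block it was 22 and no member passed. Same-numbered libraries deviated from their group means with correlations of -0.043, 0.31 and 0.26 for replicates 1 to 3. Those of replicates 2 and 3 were the highest between the groups. In contrast, cKO replicate 1 correlated better with WT replicate 3 (0.17) than with its own number. The labels give only replicate numbers and these correlations do not settle whether they are pairs, so the main fit was unpaired. Directions turned for Cp with quantile normalization (0.024) and median scaling (0.016), for Steap2 with library weights (-0.0067), and for Tfrc and Trf with a Y-linked covariate (0.96 and 1.56) and against WT replicate 3 alone (0.39 and 0.62). Without single libraries the log2 fold change ran from -0.288 to 0.122 for Tfrc, -0.362 to 0.196 for Trf, -0.311 to 0.212 for Cp, -0.232 to 0.433 for Lcn2 and -0.0158 to 0.119 for Steap2. The cause of these turns was not tested. Fits with 1 WT library take its spread from the other group. The Y-linked covariate follows the group apart from WT replicate 3, so estimates beside it rest mostly on that library. FPKM carry no read totals, so precision at low levels, as for Slc40a1, is limited by an unknown depth that could only be estimated roughly.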
